A study of Capra hircus with 12 samples.

Results

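The genes described here are the 113 goat genes whose KEGG annotation in the deposited tables holds the term oxidative phosphorylation, out of 16211 genes listed in at least one table. They comprise 38 subunits of complex I, 4 of complex II, 9 of complex III, 16 of complex IV, 4 assembly factors of complex IV, 15 subunits of complex V, 21 subunits of the V-type ATPase, and 6 other proton pumps and pyrophosphatases. The term was assigned from sequence databases and not from these measurements. None of the 113 is encoded by mitochondrial DNA, so the mitochondrially encoded subunits are not analysed here. The tables list 32 members under a locus number. For 28 of these the tables' own description gives the name, written here with "-like" (COX8A-like), and for the other 4 the RefSeq gene table gives it. NDUFA4 is counted with complex I by its name, although its product is now known as a subunit of complex IV.

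Oxidative phosphorylation takes place in the inner mitochondrial membrane. Complexes I and II pass electrons from NADH and succinate to ubiquinone, complex III passes them to cytochrome c, and complex IV passes them to oxygen. Complexes I, III and IV pump protons, and complex V, the ATP synthase, uses the returning protons to make ATP. The V-type ATPase works the other way, spending ATP to acidify lysosomes, endosomes and secretory vesicles, and shares the KEGG term without sharing the organelle. The lactating mammary gland takes up glucose mainly to make lactose, and its epithelial cells are rich in mitochondria that supply ATP for milk synthesis.

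The measurements are RNA-seq counts from mammary glands of lactating female dairy goats, biopsied after infusion of glucose into the gland. The 12 libraries divide into a low, middle and high dose of 4 each. No source used here gives the amount of glucose behind each dose, the breed or age of the goats, or whether a goat received more than one dose. There is no group without glucose among the libraries, so each dose is compared with another dose. The labels do not name individual goats, so p-values reflect the spread among these libraries, which may be partly technical. The comparisons of doses share libraries: the low dose enters both comparisons against low, and the middle dose enters both comparisons that name it.

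Total counts were 9555072 to 12716883 per library. A set of 8 milk protein genes took 2.18% to 13.7% of the counts in the low-dose libraries, 3.44% to 58.9% in the middle-dose libraries and 7.48% to 42.1% in the high-dose libraries. CPM values (counts scaled to a fixed library size) were therefore computed on library sizes scaled by the trimmed mean of M values (TMM), which sets the bulk of genes equal between libraries. The tables came in 2 layouts that no label mentions: 8 libraries share one gene list, and 4 share another (low-dose replicate 3, middle-dose replicate 1 and the high-dose replicates 1 and 4). Of the 113 members, 111 were listed in every table and 103 had enough counts to be tested among 13624 genes.

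The 10 members that were not tested were barely detected in these biopsies. They are the V-type ATPase subunits ATP6V0A4, ATP6V0E2, ATP6V1G2 and ATP6V1G3, the tissue-restricted complex IV isoforms COX6A2-like, COX6B2-like and COX7B2-like, and the 3 cation pump genes ATP12A, ATP4A and ATP4B. ATP6V0A4, which encodes the a4 subunit known from kidney, reached 28 counts in 1 library, and ATP12A, a non-gastric proton and potassium pump, reached 25. The gastric pump genes ATP4A and ATP4B held at most 2 and 4 counts. COX6A2-like and COX7B2-like, isoforms known from muscle and testis, are each in 1 table layout only and held at most 2 counts.

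Members of the respiratory chain and ATP synthase had higher estimates at the middle dose than at the low dose in nearly every case, on the TMM scale. Of 79 tested subunits of complexes I to V, 76 had a log2 fold difference above 0 and 3 below, with a median of 0.37, against a median of -0.03 over all genes tested. Among all 103 tested members the estimate was above 0 for 92 (89.3%), whereas 47.4% of all genes had an estimate above 0. No member passed an adjusted p of 0.05 in edgeR's quasi-likelihood test, and 0% of all genes did. The smallest adjusted p among members was 0.0735, for COX8A-like. At an unadjusted p under 0.05, 34 members (33%) were higher and 1 was lower at the middle dose, where 12.5% of all genes were higher and 11.3% lower. All 4 middle-dose values lay above all 4 low-dose values for 22 members (21.4%) and below them for none, against 5.93% and 5.92% of all genes. All members were measured in the same libraries, so they are not independent observations. The mean log2 CPM over complexes I to V overlapped between these doses, with 5.34 in low-dose replicate 2 and 5.33 in middle-dose replicate 1.

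Other tests of the same counts gave members calls that edgeR did not give. DESeq2 called 13 members at an adjusted p of 0.05 between the middle and low doses, all of them higher at the middle dose. That is 12.6% of the members, beside 10.6% of all genes, so the share called was near the background. The test of limma with voom quality weights called 43 members (41.7%), of which 41 were higher, beside 34.5% of all genes. The 13 members called by DESeq2 were all among those 43.

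Over complexes I to V the mean log2 CPM of the high dose, 5.28, stood between 5.07 at the low dose and 5.41 at the middle dose. Its libraries were split, with 5.52 and 5.51 in replicates 2 and 3 and 5.13 and 4.98 in replicates 1 and 4. In the 8-library layout alone, the median difference of the high dose from the middle dose was 0.087. Against the low dose, 87 of the 103 members (84.5%) had an estimate above 0, beside 47% of all genes, and the median over complexes I to V was 0.25. In edgeR 0 members passed an adjusted p of 0.05, as did 0% of all genes. At an unadjusted p under 0.05, 11 members (10.7%) were higher and 0 lower, with 7.27% and 4.18% of all genes. The groups did not overlap for 1 member, COX8A-like, which was higher. Over all genes, 2.25% were higher and 2.47% lower without overlap. DESeq2 and limma called 0 members in this comparison, where DESeq2 called 0.455% of all genes and limma called 0%.

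Against the middle dose, the high dose gave 36 of 103 members (35%) an estimate above 0, beside 52.8% of all genes, and a median of -0.12 over complexes I to V, where the median of all genes was 0.03. At an unadjusted p under 0.05 there was 1 member higher, the V-type ATPase subunit ATP6V1F, and 8 members (7.77%) lower, beside 7.49% and 7.4% of all genes, so the count was at the background. The groups did not overlap for 3 members, all lower at the high dose: NDUFB6, SDHB and ATP6V1E2. Of all genes, 3.33% were higher and 2.61% lower without overlap. By edgeR 0 members passed an adjusted p of 0.05, and 0% of all genes did. DESeq2 and limma each called 1 member, SDHB, where they called 2.12% and 2.45% of all genes.

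**Figure D1:**
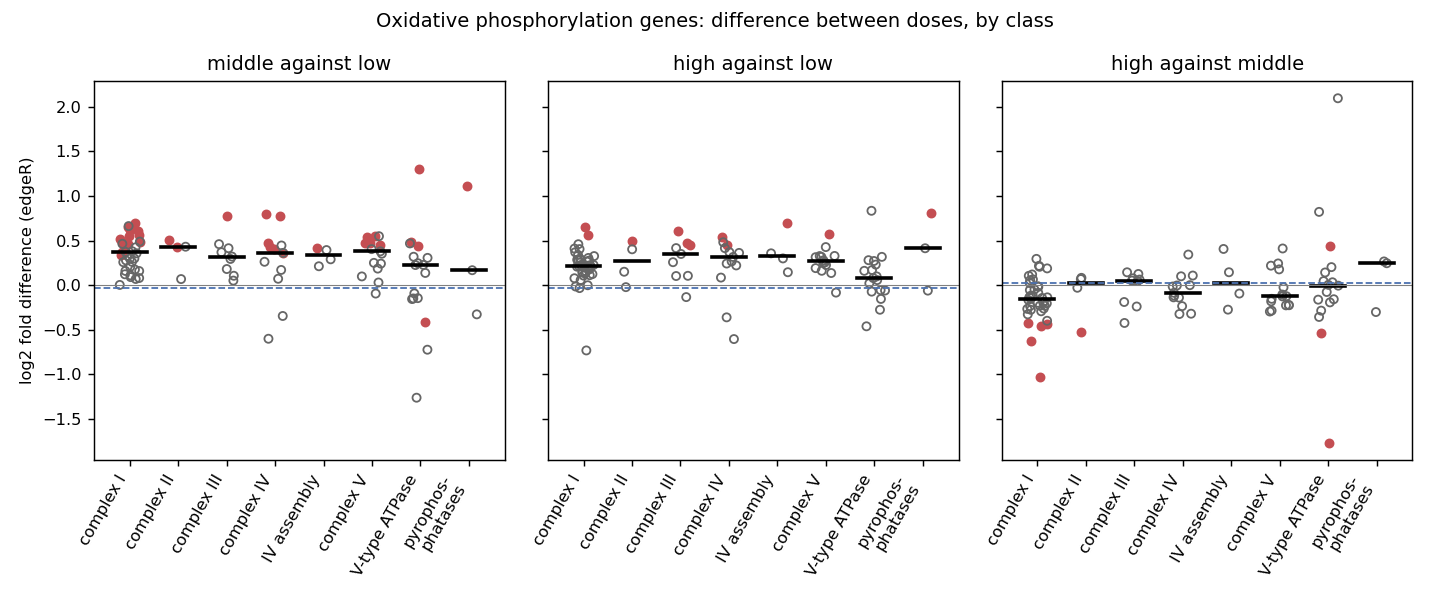
Log2 fold difference from edgeR on the TMM scale (vertical axis) for each of the 103 tested members, grouped by class (horizontal axis), in the 3 comparisons of doses. Filled red points have an unadjusted p under 0.05, black bars are class medians and the dashed line is the median of all genes tested. In the middle against low panel all 38 complex I members lie above 0, whereas the 17 V-type ATPase members lie on both sides; with library size alone in place of TMM, most members lie below 0 in this panel.

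The direction above depends on the scaling of the libraries. With library size alone, the median over all genes itself moved to -0.86 between the middle and low doses, where milk protein genes take a larger part of 3 middle-dose libraries. On that scale 2 of 103 members were above 0, beside 4.98% of all genes, and the median of complexes I to V was -0.48. At an unadjusted p under 0.05, 0 members were higher and 10 lower (9.71%), where 1.15% of all genes were higher and 42.3% lower. Relative to the median of all genes, that is 0.38 higher, and 94 of 103 members lay above that median. For the high dose against the low dose, library size alone gave 29 members above 0 (18.4% of all genes), with 0 higher and 0 lower at an unadjusted p under 0.05 (1.15% and 2.83% of all genes). For high against middle it gave 100 above 0 (91.4% of all genes), with 2 higher and 0 lower (14.6% and 0.396% of all genes). All differences below are on the TMM scale, that is, relative to the bulk of the other genes.

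Complex I, which oxidises NADH, had all 38 members above 0 at the middle dose against the low dose, with a median of 0.37, 15 of them at an unadjusted p under 0.05 and 7 without overlap. Those 15 are 39.5% of complex I, beside 12.5% of all genes higher and 11.3% lower, or 23.7% in either direction. Without overlap, 5.93% of all genes were higher. The smallest p values belonged to NDUFA6, NDUFB6 and NDUFS4, all accessory subunits that surround the catalytic core. NDUFA6 (chromosome 5, 104237424 to 104247265 in the tables, whose goat build is not named) had 23.7, 27.0, 27.7 and 23.4 CPM at the low dose. Middle-dose values were 37.9, 54.6, 33.8 and 39.1 CPM, and high-dose values were 21.8, 36.4, 35.0 and 30.3 CPM. Every middle-dose library was above every low-dose library, a log2 fold difference of 0.70 ± 0.19 (SE; edgeR adjusted p = 0.0815), or 1.62-fold. The high-dose libraries overlapped both other groups.

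NDUFS4 (chromosome 20, 25344720 to 25458606), an accessory subunit of the matrix arm, had 19.5, 28.0, 28.2 and 28.5 CPM at the low dose and 46.5, 42.1, 30.1 and 44.4 CPM at the middle dose. Its high-dose values were 23.4, 37.2, 31.7 and 26.0 CPM. The low and middle groups did not overlap, and the difference was 0.64 ± 0.20 (SE; edgeR adjusted p = 0.0976). Middle-dose replicate 3 was the closest to the low-dose values, both here and for NDUFA6. NDUFB6, a subunit of the membrane arm, had 18.8, 27.3, 24.9 and 21.4 CPM at the low dose and 36.9, 36.1, 31.1 and 31.4 CPM at the middle dose. Its high-dose values of 26.3, 27.9, 30.8 and 22.9 CPM all lay below the middle-dose values. The difference was 0.55 ± 0.15 between the middle and low doses (SE; edgeR adjusted p = 0.0821) and -0.33 ± 0.15 between the high and middle doses (SE; edgeR adjusted p = 0.339).

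Of the catalytic core of complex I, NDUFV1 and NDUFS1 had the smallest p values between the high and low doses. NDUFV1, which carries the NADH-binding site and the flavin, had 23.7, 35.1, 22.3 and 26.6 CPM in the low-dose libraries, 34.7, 46.0, 43.3 and 40.5 in the middle-dose libraries and 35.8, 52.5, 41.2 and 29.7 in the high-dose ones. Low-dose replicate 2 reached into both other groups, and the differences from the low dose were 0.61 ± 0.20 for the middle dose (SE; edgeR adjusted p = 0.107) and 0.56 ± 0.20 for the high dose (SE; edgeR adjusted p = 0.386). NDUFS1, the largest iron-sulphur subunit of the core, had 85.5, 121, 79.6 and 103 CPM at the low dose and 111, 233, 171 and 97.0 CPM at the high dose, where replicate 2 stood far above the rest. Its difference between the high and low doses was 0.65 ± 0.26 (SE; edgeR adjusted p = 0.396). The other core subunits among the members had lower estimates in this comparison, 0.11 for NDUFV2, 0.12 for NDUFS8, 0.16 for NDUFS7 and 0.23 for NDUFS3, beside a median of 0.21 over complex I. NDUFV3, a small subunit of the NADH-oxidising module, had a difference of 0.41 in this comparison.

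The lowest estimate for complex I between the high and low doses was that of NDUFA1, a small subunit of the membrane arm, at -0.73 ± 0.47 (SE; edgeR adjusted p = 0.537), with values of 4.05 to 13.9 CPM at the low dose and 3.23 to 8.54 CPM at the high dose. Between the high and middle doses complex I had 29 of 38 members below 0, a median of -0.15, and 5 members lower at an unadjusted p under 0.05. That is 13.2% of complex I, with 0 members higher, beside 7.4% of all genes lower and 7.49% higher. In either direction 14.9% of all genes passed, so the share of complex I was near the background. NDUFA7, an accessory subunit, had 13.3, 14.7, 9.73 and 12.2 CPM at the middle dose and 6.87, 10.8, 7.89 and 6.92 CPM at the high dose. Only high-dose replicate 2 reached into the middle-dose range, and the difference was -0.62 ± 0.23 (SE; edgeR adjusted p = 0.266). NDUFC2, another membrane-arm subunit, differed by -0.44 ± 0.19 and NDUFS4 by -0.46 ± 0.20 (SE; edgeR adjusted p = 0.31 and 0.308).

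Complex II, which oxidises succinate and is the one complex of the chain that also belongs to the citric acid cycle, had 4 of 4 members above 0 at the middle dose against the low dose, with 2 higher at an unadjusted p under 0.05. Of all genes 12.5% were higher at that threshold. SDHB (chromosome 2, 134779046 to 134802835), the iron-sulphur subunit, had 49.0, 62.6, 54.2 and 42.2 CPM at the low dose. It had 76.8, 77.7, 66.9 and 74.2 CPM at the middle dose and 48.0, 59.0, 53.9 and 44.0 CPM at the high dose. The middle dose stood above both other groups without overlap, while the low and high groups covered nearly the same range. The difference was 0.51 ± 0.14 between the middle and low doses (SE; edgeR adjusted p = 0.0853), -0.53 ± 0.14 between the high and middle doses (SE; edgeR adjusted p = 0.211) and -0.02 ± 0.14 between the high and low doses (SE; edgeR adjusted p = 0.958).

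The other 3 complex II subunits overlapped between the middle and high doses. SDHA, the flavoprotein that binds succinate, had 85.2, 112, 80.5 and 88.4 CPM under the low dose, 109, 131, 131 and 120 under the middle dose and 101, 164, 144 and 107 under the high dose. Low-dose replicate 2 overlapped both other groups, and the differences from the low dose were 0.42 ± 0.17 for the middle dose (SE; edgeR adjusted p = 0.172) and 0.49 ± 0.17 for the high dose (SE; edgeR adjusted p = 0.386). SDHC, one of the 2 membrane anchors, had 62.2 to 74.9 CPM in the low-dose libraries, 63.9 to 81.2 in the middle-dose libraries and 66.5 to 82.2 in the high-dose ones, and its differences from the low dose were 0.07 ± 0.12 and 0.15 ± 0.12 (SE). SDHD, the other anchor, had 156, 238, 113 and 145 CPM under the low dose, 191, 190, 286 and 213 under the middle dose and 180, 259, 290 and 134 under the high dose, and the 3 groups overlapped. SDHD overlaps the neighbouring gene TIMM8B by 41 bases in the tables' coordinates, and no source used here says how shared reads were counted. Whether SDHB differed between doses more than SDHA, SDHC or SDHD was not tested.

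Complex III had 9 of 9 members above 0 at the middle dose (median 0.32) and 8 of 9 at the high dose (median 0.35) against the low dose. At the middle dose 1 member (11.1%) was higher at an unadjusted p under 0.05 and 0 lower, beside 12.5% and 11.3% of all genes. Without overlap 3 members were higher, beside 5.93% of all genes. UQCRB-like, a small subunit next to the ubiquinone-binding site, had 32.9, 41.9, 43.9 and 33.4 CPM in the low-dose libraries, 57.5, 86.5, 45.8 and 70.7 in the middle-dose libraries and 38.3, 64.1, 61.1 and 30.6 in the high-dose ones. All middle-dose libraries were above the low-dose libraries, replicate 3 by the narrowest margin, with a difference of 0.77 ± 0.26 (SE; edgeR adjusted p = 0.113). UQCRFS1-like, the Rieske iron-sulphur protein, had 38.6, 51.1, 46.8 and 51.7 CPM under the low dose, 61.2, 69.2, 59.7 and 68.9 under the middle dose and 56.2, 70.4, 116 and 43.9 under the high dose. The middle dose cleared the low dose without overlap (0.46 ± 0.25, SE; edgeR adjusted p = 0.273), whereas the larger difference of the high dose (0.60 ± 0.25, SE; edgeR adjusted p = 0.396) came with 1 library inside the low-dose range and 1 far above all others.

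CYC1-like, the cytochrome c1 subunit, had 44.9, 60.9, 40.6 and 42.0 CPM at the low dose and 56.1, 81.7, 80.7 and 44.0 CPM at the high dose. High-dose replicates 2 and 3 were above every low-dose library and replicates 1 and 4 were not, with a difference of 0.48 ± 0.20 (SE; edgeR adjusted p = 0.408). UQCRC2, a core protein of the matrix side, differed by 0.45 between the high and low doses. UQCR11-like, one of the smallest subunits, had the lowest estimate of the complex in that comparison, at -0.13 ± 0.21 (SE).

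Complex IV, which reduces oxygen, had 11 of 13 tested members above 0 at the middle dose (median 0.36) and 11 of 13 at the high dose (median 0.32). At the middle dose 6 members (46.2%) were higher at an unadjusted p under 0.05 and 0 lower, beside 12.5% and 11.3% of all genes. Without overlap 5 members were higher, beside 5.93% of all genes. COX8A-like (chromosome 29, 40057994 to 40059893), the smallest nuclear-encoded subunit, had the smallest p of all members. It had 36.7, 48.2, 42.2 and 38.9 CPM in the low-dose libraries, 65.7, 63.0, 66.5 and 89.6 in the middle-dose libraries and 52.5, 70.2, 54.9 and 49.99 in the high-dose ones. Every middle-dose and every high-dose library exceeded every low-dose library. The difference was 0.78 ± 0.16 for the middle dose (SE; edgeR adjusted p = 0.0735), or 1.71-fold, and 0.45 ± 0.16 for the high dose (SE; edgeR adjusted p = 0.386), or 1.37-fold. Over the alternatives tried for the middle dose against the low dose, its adjusted p ran from 0.000917 to 0.792.

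COX6A1-like, the widely expressed form of another small subunit, had 39.4, 38.9, 50.3 and 35.7 CPM at the low dose and 97.1, 63.0, 35.6 and 91.5 CPM at the middle dose. Middle-dose replicate 3 was just below the lowest low-dose library while the other 3 were above the highest, and the difference was 0.80 ± 0.30 (SE; edgeR adjusted p = 0.143). COX7A2L-like, known as a factor that joins complexes III and IV into supercomplexes, differed by 0.40 ± 0.16, and COX5B-like, a subunit of the matrix side, by 0.48 ± 0.19 without overlap (SE; edgeR adjusted p = 0.154 and 0.159). COX5A-like, its partner, differed by 0.54 ± 0.24 between the high and low doses (SE; edgeR adjusted p = 0.415). COX4I2-like, the isoform of subunit 4 known from lung and low oxygen, had 1.90, 7.13, 3.99 and 3.74 CPM under the low dose, 3.61, 2.43, 3.22 and 1.63 under the middle dose and 3.60, 1.42, 2.26 and 3.61 under the high dose. The groups overlapped, and both differences from the low dose were below 0, at -0.60 (SE 0.44 and 0.43; edgeR adjusted p = 0.415 and 0.582).

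The 4 assembly factors of complex IV in the KEGG term were all above 0 in both comparisons against the low dose, with medians of 0.34 and 0.33. COX15-like, the heme A synthase, had 25.1, 23.8, 27.5 and 21.8 CPM in the low-dose libraries, 26.9, 37.6, 35.2 and 31.6 in the middle-dose libraries and 26.2, 29.9, 26.2 and 26.4 in the high-dose ones. The middle dose overlapped the low dose by 1 library, with a difference of 0.42 ± 0.14 (SE; edgeR adjusted p = 0.109). COX10-like, which makes the precursor of heme A, had its larger estimate at the high dose, 0.70 ± 0.30 (SE; edgeR adjusted p = 0.416). Its high-dose values were 9.23, 12.1, 18.7 and 6.99 CPM and its low-dose values were 5.82, 9.65, 7.003 and 6.54 CPM, and the groups overlapped. COX11-like and COX17-like, which deliver copper, differed by 0.36 and 0.30 between the high and low doses.

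Complex V, the ATP synthase, had 14 of 15 members above 0 in both comparisons against the low dose, with medians of 0.38 for the middle dose and 0.27 for the high dose. At the middle dose 5 members (33.3%) were higher at an unadjusted p under 0.05 and 0 lower, beside 12.5% and 11.3% of all genes. Without overlap 5 members were higher, beside 5.93% of all genes. ATP5C1 (chromosome 13, 11815498 to 11820990), the gamma subunit that forms the rotating shaft, had 80.1, 94.9, 93.3 and 81.1 CPM at the low dose. It had 129, 127, 107 and 122 CPM at the middle dose and 91.6, 113, 119 and 91.7 at the high dose. The low and middle groups were apart, with a difference of 0.48 ± 0.13 (SE; edgeR adjusted p = 0.0822), or 1.39-fold, and the high dose lay between them. ATP5F1, the b subunit of the stator, had 124, 154, 159 and 131 CPM under the low dose, 190, 216, 181 and 203 under the middle dose and 133, 183, 180 and 152 under the high dose. It too separated the middle from the low dose, by 0.48 ± 0.15 (SE; edgeR adjusted p = 0.0975). ATP5J2, the f subunit of the membrane part, differed by 0.55 ± 0.17 (SE; edgeR adjusted p = 0.102), without overlap.

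In the catalytic head, ATP5A1, the alpha subunit, had 377, 494, 368 and 400 CPM in the low-dose libraries, 361, 430, 500 and 382 in the middle-dose libraries and 469, 521, 635 and 357 in the high-dose ones, with a difference of 0.03 ± 0.20 between the middle and low doses (SE; edgeR adjusted p = 0.94). ATP5B, the beta subunit that carries the catalytic sites, had 256, 351, 230 and 288 CPM under the low dose, 279, 400, 399 and 359 under the middle dose and 365, 479, 557 and 271 under the high dose. High-dose replicate 4 lay within the low-dose range, and the other high-dose libraries lay above it. Middle-dose replicate 1 also lay within the low-dose range. The differences of ATP5B from the low dose were 0.35 ± 0.23 for the middle dose, near the median of complex V (SE; edgeR adjusted p = 0.365), and 0.57 ± 0.23 for the high dose (SE; edgeR adjusted p = 0.396). Subunit c, the ring in the membrane, is made from 3 genes whose mature products are identical. Of these ATP5G1 differed by 0.25, ATP5G2 by 0.10 and ATP5G3 by -0.09 between the middle and low doses, the last being the 1 complex V member below 0. These 3 genes share much of their coding sequence, and reads of one could have been counted for another.

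**Figure D2:**
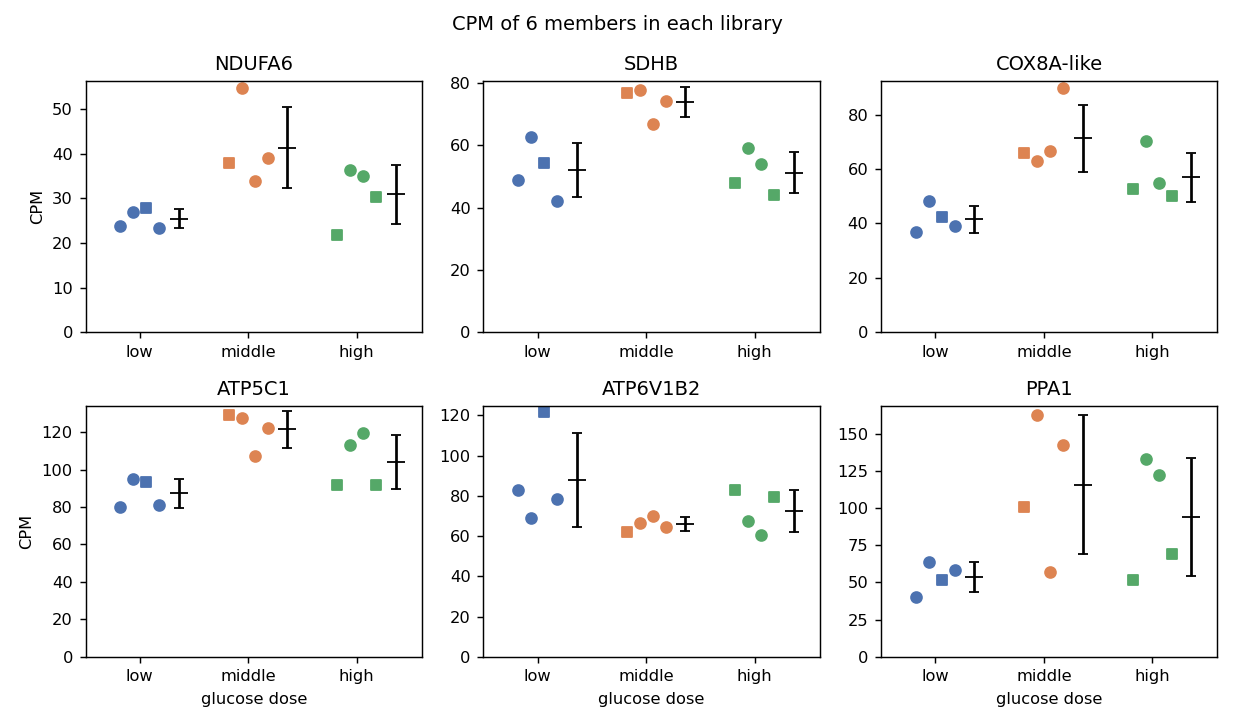
CPM (vertical axis, from 0) of NDUFA6, SDHB, COX8A-like, ATP5C1, ATP6V1B2 and PPA1 in each library at the low, middle and high dose (horizontal axis). Circles are libraries of the 8-library table layout and squares those of the other layout, and the bars show mean ± SD (n = 4). SDHB is at 66.9 to 77.7 CPM at the middle dose and at 42.2 to 62.6 CPM in the other groups, whereas PPA1 has 1 middle-dose library at 57.0 CPM beside 3 at 101 to 163 CPM.

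The V-type ATPase had members on both sides of 0. At the middle dose against the low dose 10 of 17 tested subunits were above 0, with a median of 0.23, 3 at an unadjusted p under 0.05 and higher, and 1 lower. In either direction that is 23.5% of the tested subunits, beside 23.7% of all genes, so the share was at the background. At the high dose against the low dose 11 of 17 were above 0, with a median of 0.08. There 0 subunits had an unadjusted p under 0.05, beside 11.5% of all genes. Between the high and middle doses 8 of 17 were above 0, with a median of -0.01. Whether these counts differ from those of complexes I to V was not tested.

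The cytosolic V1 sector, which splits ATP, held members on both sides. ATP6V1B2, the widely expressed B subunit of the catalytic ring, had 82.9, 69.0, 122 and 78.4 CPM in the low-dose libraries, 61.9, 66.6, 70.2 and 64.6 in the middle-dose libraries and 83.0, 67.7, 60.4 and 79.6 in the high-dose ones. Low-dose replicate 3 was the highest library and middle-dose replicate 3 overlapped the low dose, with a difference of -0.42 ± 0.18 between the middle and low doses (SE; edgeR adjusted p = 0.179). ATP6V1A, its partner in the ring, differed by -0.15 ± 0.27 in the same comparison (SE; edgeR adjusted p = 0.768). ATP6V1C2, a form of the regulatory C subunit known from epithelia, had 52.3, 52.6, 59.5 and 61.4 CPM under the low dose, 82.5, 68.5, 80.01 and 74.6 under the middle dose and 40.5, 62.2, 60.8 and 75.2 under the high dose. It was the 1 V-type ATPase member whose middle-dose values all exceeded its low-dose values, with a difference of 0.44 ± 0.17 (SE; edgeR adjusted p = 0.15), and it overlaps the gene PDIA6 by 56 bases.

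ATP6V1D, part of the central rotor, had 76.1, 85.1, 140 and 78.8 CPM in the low-dose libraries, 134, 158, 104 and 130 in the middle-dose libraries and 74.2, 104, 77.7 and 106 in the high-dose ones. A single low-dose library, replicate 3, lay within the middle-dose range. The difference between the high and middle doses was -0.54 ± 0.22 (SE; edgeR adjusted p = 0.299). ATP6V1F, which sits beside it in the rotor, had 27.1, 38.8, 41.6 and 24.9 CPM at the middle dose and 47.0, 45.8, 46.5 and 40.3 CPM at the high dose, and differed by 0.44 ± 0.17 in the same comparison (SE; edgeR adjusted p = 0.286). These rotor subunits thus had estimates of opposite sign between the high and middle doses.

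In the membrane V0 sector, which carries the protons, ATP6V0D1, the subunit that couples the rotor to the ring, had 57.3, 61.9, 76.2 and 60.6 CPM under the low dose, 89.4, 93.7, 65.9 and 109 under the middle dose and 69.4, 89.9, 78.0 and 81.9 under the high dose. Middle-dose replicate 3 overlapped the low dose and the other 3 did not, with a difference of 0.48 ± 0.16 (SE; edgeR adjusted p = 0.115). ATP6V0D1 overlaps another listed gene by 2121 bases, more than any other member. ATP6V0E1, a small membrane subunit, differed by -0.15 ± 0.13 from the low dose at the high dose (SE; edgeR adjusted p = 0.644). TCIRG1, the a3 subunit known from osteoclast and immune cell lysosomes, differed by 0.14 and -0.06 at the middle and high doses, and shares 561 bases with the complex I gene NDUFS8.

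The V-type ATPase isoforms ATP6V1B1 and ATP6V1E2 had few counts. ATP6V1B1, the B subunit of kidney and other acid-secreting epithelia, had 2.55, 0.21, 3.71 and 2.37 CPM in the low-dose libraries, 1.53, 0.867, 1.10 and 0 in the middle-dose libraries and 10.6, 1.55, 0.301 and 3.17 in the high-dose ones. High-dose replicate 1 alone carried its estimate of 0.83 ± 0.94 between the high and low doses (SE; edgeR adjusted p = 0.74): without that library the estimate was -0.40. ATP6V1E2, an E subunit known from testis, had 1.19, 0.559, 0.56 and 0.359 CPM under the low dose, 2.22, 1.56, 0.658 and 2.44 under the middle dose and 0.563, 0.386, 0.376 and 0.589 under the high dose. The high-dose values lay below all middle-dose values, with a difference of -1.77 ± 0.51 (SE; edgeR adjusted p = 0.221), on 3 to 20 counts per library.

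Of the other members, the 2 inorganic pyrophosphatases had estimates of opposite sign between the middle and low doses. These enzymes remove the pyrophosphate released by biosynthetic reactions. PPA1 (chromosome 28, 24174913 to 24206337), the cytosolic enzyme, had 40.2, 63.5, 51.5 and 58.7 CPM in the low-dose libraries, 101, 163, 57.0 and 143 in the middle-dose libraries and 51.4, 133, 122 and 68.9 in the high-dose ones. In the middle group 3 libraries stood above the whole low-dose range and replicate 3 within it. The difference was 1.11 ± 0.35 for the middle dose (SE; edgeR adjusted p = 0.103), or 2.16-fold, and 0.81 ± 0.35 for the high dose (SE; edgeR adjusted p = 0.415). Without middle-dose replicate 3 it was 1.34 (edgeR adjusted p = 0.0188). PPA2, the mitochondrial enzyme, had 30.1, 35.9, 25.7 and 32.6 CPM under the low dose, 17.8, 22.4, 34.9 and 23.6 under the middle dose and 36.7, 25.4, 32.7 and 24.2 under the high dose. Here middle-dose replicate 3 was the one library of its group inside the low-dose range, and the difference was -0.33 ± 0.22 (SE; edgeR adjusted p = 0.369). LHPP, a phosphatase that also acts on pyrophosphate, differed by 0.17 and 0.41 at the middle and high doses.

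The ratio of 2 members within a library does not depend on how libraries are scaled. Counts of 10 pairs of paralogous members were compared as log2 ratios, each with a two-sided exact permutation test of 4 against 4 libraries, in which the smallest possible p is 0.0286. Across the 30 tests no adjusted p was below 0.451. At a smallest possible p of 0.0286, a single fully separated pair could not reach a low adjusted p among 30 tests. The adjusted values therefore cannot decide whether any of these ratios differed between doses. The PPA1 to PPA2 ratio was 0.42, 0.82, 1.00 and 0.85 in the low-dose libraries, 2.50, 2.86, 0.71 and 2.59 in the middle-dose libraries and 0.49, 2.39, 1.90 and 1.51 in the high-dose ones. Middle-dose replicate 3 lay within the low-dose range and the other 3 middle-dose libraries were above every low-dose library, a difference in means of 1.39 (exact p = 0.114, adjusted p = 0.451). ATP6V1E1 to ATP6V1E2 was the 1 pair and comparison without overlap, with 4.88, 5.65, 6.50 and 4.90 at the middle dose and 6.89, 7.39, 7.72 and 6.70 at the high dose (difference 1.69, exact p = 0.0286, adjusted p = 0.451).

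NDUFA4 and NDUFA4L2, the second known as a form induced by low oxygen, had a log2 ratio of 3.73 ± 0.40 under the low, 4.26 ± 0.35 under the middle and 4.08 ± 0.52 under the high dose (SD, n = 4 each). COX4I1-like to COX4I2-like was 5.05 ± 0.68, 5.73 ± 0.49 and 5.69 ± 0.82 in the same order. The subunit c genes ATP5G2 and ATP5G3 were at 1.44 ± 0.14, 1.67 ± 0.25 and 1.09 ± 0.38, where 3 of the 4 high-dose libraries lay below every other library. ATP6V1C1 to ATP6V1C2 was at -0.52 ± 0.23, -0.62 ± 0.25 and -0.40 ± 0.24, so the C subunit forms stayed within the spread of the libraries at every dose.

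**Figure D3:**
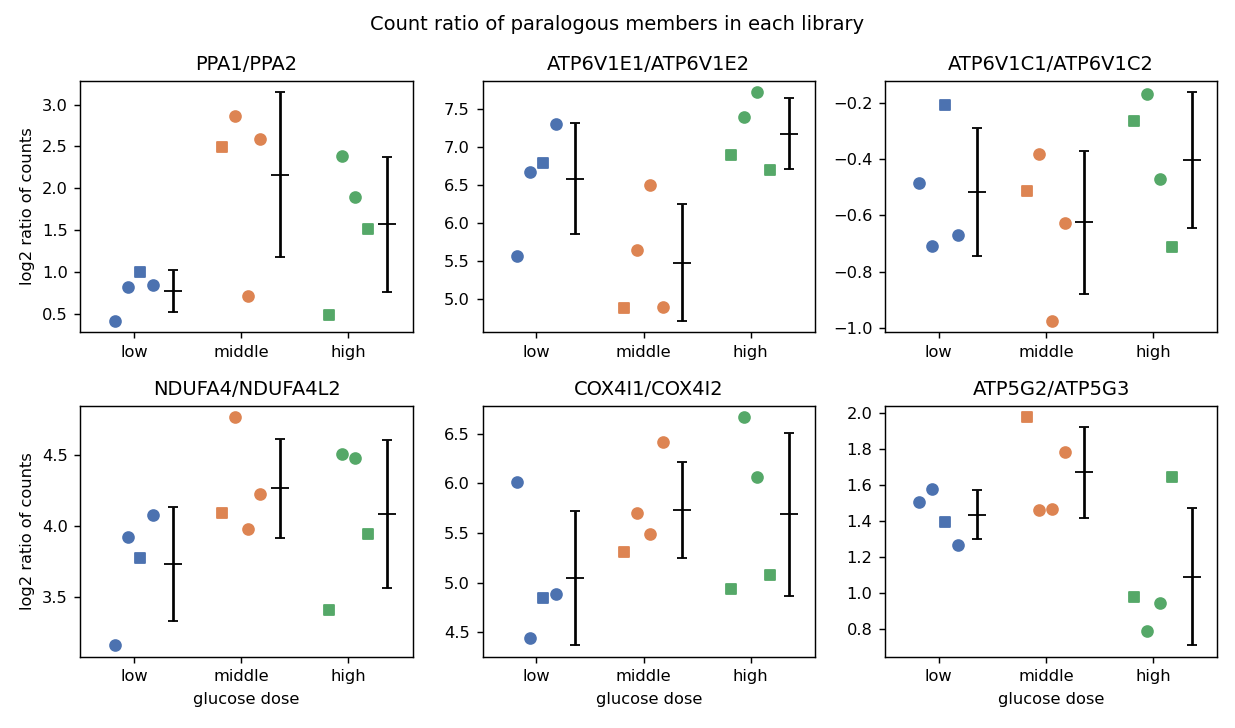
Log2 ratio of raw counts (vertical axis) for 6 pairs of paralogous members in each library at the 3 doses (horizontal axis), with circles and squares for the 2 table layouts and bars for mean ± SD (n = 4). The PPA1 to PPA2 ratio lies at 2.50 to 2.86 in 3 middle-dose libraries and at 0.71 in the other one, next to the low-dose libraries at 0.42 to 1.00.

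The mean level of each class also differed between libraries of one dose. The mean log2 CPM over the 79 subunits of complexes I to V was 4.90 to 5.34 under the low dose, highest in replicate 2, and 5.33, 5.54, 5.39 and 5.38 under the middle dose. High-dose values were 5.13, 5.52, 5.51 and 4.98. Low-dose replicate 2 reached the lower end of the middle-dose libraries, and the high-dose libraries fell into a pair level with the middle dose and a pair near the low dose. Complex I was the only complex whose mean showed no overlap between the middle and low doses, by a narrow margin. Its mean was 4.29 to 4.69 at the low dose and 4.70 to 4.98 at the middle dose. The mean over the 4 complex IV assembly factors did not overlap either, at 3.88 to 4.28 and 4.36 to 4.44. The mean over the V-type ATPase followed another order, with 5.02, 4.66, 5.26 and 4.92 in the low-dose libraries, 5.17, 5.09, 4.93 and 4.97 in the middle-dose libraries and 5.11, 5.11, 4.75 and 5.19 in the high-dose ones. Low-dose replicate 2 was the highest of its group for complexes I to V and the lowest of all libraries for the V-type ATPase.

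**Figure D4:**
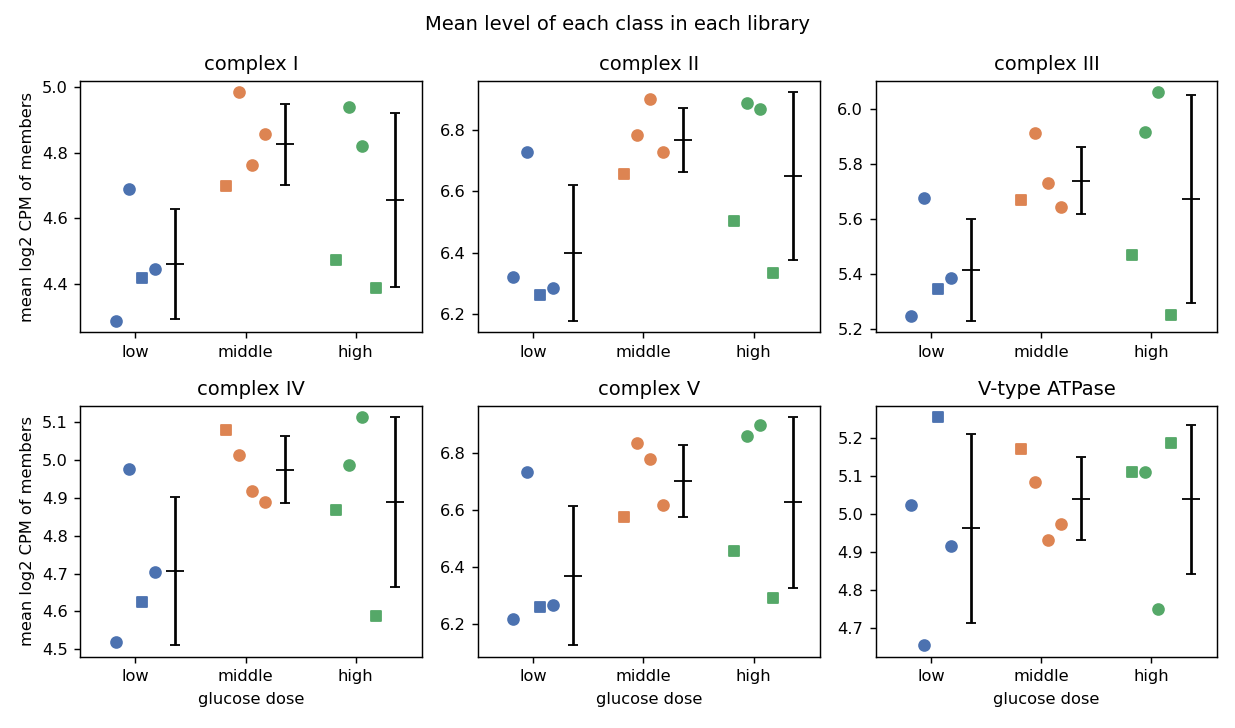
Mean log2 CPM (vertical axis) over the tested members of complexes I, II, III, IV and V and of the V-type ATPase, in each library at the 3 doses (horizontal axis). Circles are libraries of the 8-library table layout, squares those of the other layout, and bars show mean ± SD (n = 4). At the high dose both circles of complex I lie above both squares, at 4.94 and 4.82 against 4.47 and 4.39, and the V-type ATPase does not show this order.

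The table layout of a library moved with the high-dose values. Within the 8-library layout the mean log2 CPM of complex I was 4.47 ± 0.20 in 3 low-dose libraries, 4.87 ± 0.11 in 3 middle-dose libraries and 4.88 ± 0.08 in 2 high-dose libraries (SD). In the other layout it was 4.42 in the 1 low-dose library, 4.70 in the 1 middle-dose library and 4.43 ± 0.06 in the 2 high-dose libraries (SD). In the 8 libraries alone, 41 members were higher at the high dose than at the low dose at an unadjusted p under 0.05, beside 13.6% of all genes, the median of complexes I to V was 0.48, and against the middle dose it was 0.09. No source used here says what the layout stands for, and its part in the result was not tested beyond these values. The count for the high dose against the low dose also rested on single libraries. It was 29 without high-dose replicate 4 (9.06% of all genes) and 1 without high-dose replicate 2 (4.02% of all genes), instead of 11. Counting either direction, it was 3 without low-dose replicate 1 (2.94% of members and 6.5% of all genes) or high-dose replicate 3 (2.91% and 6.05%). It was 5 without low-dose replicate 4 (4.85% and 8.07%) and 6 without low-dose replicate 3 (5.83% and 11.1%). With high-dose replicate 1 left out it was 17 (16.5% and 20.1%), and with low-dose replicate 2 left out 18 (17.3% and 11.9%). The share of all genes thus also moved with the library left out.

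For the middle dose against the low dose, middle-dose replicate 3 stood apart in milk protein content, at 3.44% of counts where the other 3 had 52.0% to 58.9%. Its mean over complexes I to V, 5.39, was within the range of the other 3. Without it, 86 of 103 members were above 0, beside 46.3% of all genes, and 35 were higher and 2 lower at an unadjusted p under 0.05, beside 15.9% and 18.8% of all genes. That fit of edgeR called 14 members at an adjusted p of 0.05, all higher at the middle dose. That is 13.6% of the members beside 17.3% of all genes. The 14 included COX8A-like, PPA1, COX6A1-like, ATP6V0D1, NDUFS4, NDUFA6, ATP5C1 and SDHB. The count of 35 members at an unadjusted p under 0.05, in either direction, also depended on other libraries. It was 17 without low-dose replicate 1 (16.7% of members and 17.3% of all genes), 20 without middle-dose replicate 2 (19.2% and 17.9%) and 23 without middle-dose replicate 4 (22.1% and 15.6%).

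Markers of cell types were compared in the same way, and in bulk tissue fewer cells of a type and less RNA per cell cannot be told apart. The labelled tissue was checked on 6 tested markers of luminal secretory epithelium, among them keratins, the prolactin receptor PRLR and the transcription factor ELF5. Their summed level, with 1 further listed marker, was 2346 to 3128 CPM under the low dose, 3255 to 5378 under the middle dose and 2548 to 4741 under the high dose. Of the 6 tested, 2 were higher at the middle dose and 4 lower by estimate, ELF5 by 1.65 and KRT7, a keratin of simple epithelia, by -1.55. All 7 endothelial markers had estimates above 0 between the middle and low doses (median 0.72), with summed levels of 616 to 828 CPM in the low-dose libraries, 650 to 1336 in the middle-dose libraries and 658 to 853 in the high-dose ones. All 7 T cell markers were below 0 in both comparisons against the low dose, with sums of 135 to 213, 50.8 to 138 and 57.5 to 109 CPM. Of 6 macrophage markers 5 were below 0 at the middle dose, with sums of 242 to 595, 297 to 343 and 318 to 443 CPM. Fibroblast markers summed to 3502 to 19793, 1898 to 7074 and 2601 to 10431 CPM, and myoepithelial markers to 1535 to 2178, 1069 to 1448 and 1345 to 2401 CPM. Neutrophil markers summed to 35.6 to 65.9, 22.9 to 54.6 and 45.3 to 119 CPM, adipocyte markers to 11.7 to 37.3, 14.0 to 25.4 and 9.70 to 13.4 CPM, and muscle markers to 0.712 to 3.85, 0.611 to 2.43 and 1.20 to 4.27 CPM. Erythrocyte markers were highest in low-dose replicate 1, at 214 CPM, and at most 23.8 CPM elsewhere. No marker passed an adjusted p of 0.05 in edgeR. No listed marker of these types was at 0 in all libraries, and the part of cell composition in the members' values was not tested.

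Genes that assemble the complexes but lie outside the KEGG term were compared between the middle and low doses, where 47.4% of all genes had an estimate above 0. Of 15 assembly factors of complex I, 12 were above 0 (median 0.23), with 3 higher and 0 lower at an unadjusted p under 0.05. That is 20% of these factors, below the 23.7% of all genes at that threshold in either direction. NDUFAF3 and COA1 had the smallest p values, with differences of 0.89 ± 0.25 and 0.63 ± 0.18 (SE; edgeR adjusted p = 0.0822 for both). Of 3 listed assembly factors of complex II, SDHAF4, which helps to join SDHA with SDHB, differed by 1.07 (edgeR adjusted p = 0.0735) and 2 were below 0. All 3 assembly factors of complex III were above 0, among them BCS1L, which inserts the Rieske protein, at 0.71. Of 18 assembly factors of complex IV, 12 were above 0 (median 0.23), with SURF1 at 0.79 and SMIM20 at -0.61. Of 4 assembly factors of complex V, 3 were above 0 (median 0.12).

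Genes that serve the chain were counted the same way. Of 21 genes for mobile carriers, coenzyme Q synthesis and adenine nucleotide carriers, 16 were above 0 between the middle and low doses (median 0.27), with 2 higher and 1 lower at an unadjusted p under 0.05. In either direction that is 14.3% of the list, below the 23.7% of all genes. Between the high and low doses 15 were above 0 (median 0.14). There SLC25A5, which exchanges ADP for ATP across the inner membrane, differed by 0.87 ± 0.29 and CYCS, cytochrome c, by 0.98 ± 0.36 (SE; edgeR adjusted p = 0.386 for both). SLC25A5 had 99.8, 159, 196 and 75.2 CPM at the high dose and 55.3 to 91.4 CPM at the low dose. CYCS had 14.6, 26.1, 37.7 and 10.6 CPM against 8.55 to 14.5 CPM. High-dose replicate 4 lay within the low-dose range for both. Of 17 tested regulators of mitochondrial gene programmes, 11 were above 0 in both comparisons against the low dose (medians 0.15 and 0.04). PPRC1, a coactivator related to PGC-1, differed by 1.18 ± 0.32 between the high and low doses and PPARGC1A, which encodes PGC-1 alpha, by -1.02 ± 0.40 (SE; edgeR adjusted p = 0.386 and 0.393). The high-dose and low-dose libraries overlapped for both genes. Of 19 tested partners and regulators of the V-type ATPase, 11 were above 0 between the middle and low doses (median 0.07). ATP6AP2, an accessory protein of the pump, differed by -0.56 ± 0.16 and LAMTOR2, part of the lysosomal Ragulator complex, by 0.86 ± 0.29 (SE; edgeR adjusted p = 0.0825 and 0.112). Of 21 genes of mitochondrial quality control and uncoupling, 13 were above 0 between the middle and low doses (median 0.08), with GPX4, a peroxidase of membrane lipids, at 0.89 ± 0.23 and UCP1, the uncoupling protein of brown fat, at -1.66 ± 0.40 (SE; edgeR adjusted p = 0.0762 and 0.0735). UCP1 was at 1.85 CPM on average at the low dose.

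The median biological coefficient of variation estimated by edgeR, a measure of spread between libraries of a dose, was 0.223 over the 103 members and 0.276 over all genes tested. Members were not matched with other genes on expression level, on which this measure can depend. Whether they vary less than genes of like level was not tested. By class the median ran from 0.192 for complex II to 0.288 for the pyrophosphatases, and the highest value of any member was 0.932, in the V-type ATPase. A total of 11 members overlap another listed gene, and their counts may hold reads of that gene.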

How the data were processed

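For each library the authors deposited a table of unnormalised counts of reads by gene, per the file headers. The submitters' processing notes name Bowtie 0.12.2 and the mouse build mm8, whereas the tables list goat genes. No source used here gives the strandedness, the counting tool or the goat build. Libraries were made with a TruSeq kit from total RNA, per the labels' protocols.

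Genes in both table layouts (15810) were filtered with filterByExpr (minimum count 10, minimum total 15), leaving 13624 and removing 2186. Library sizes were scaled by TMM (factors 0.514 to 1.50). All 12 libraries were fitted with edgeR 4.0.16 (quasi-likelihood F test, dose as the factor), with Benjamini-Hochberg adjustment over all genes tested. The fit was also run on simulated data with changes larger than those of most members here, so that run cannot speak to differences of this size. Mean log2 CPM used a prior count of 2, and paralogue ratios a pseudocount of 0.5 and exact permutation tests (scipy 1.17.1). Alternatives were DESeq2 1.42.0, which gave no adjusted p for 4 members between the high and low doses and for 2 between the high and middle doses, limma 3.58.1, other scalings, no filter, 2 groups alone, a replicate block, a layout term, 1 layout alone and each library left out. Gene IDs matched the RefSeq gene table for 97.3% of genes.

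Members and gene lists were chosen with earlier results of these data known. Named genes were, per comparison and class, the 3 members of smallest p, the 5 largest increases and 5 largest decreases among members with a mean log2 CPM of at least 1, all complex II subunits, paralogue pairs, and the 2 genes of smallest p per related list; members beyond this were named after their values were seen. Lengths of transcripts and sequences were not used here, so levels are not compared between genes.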

Additional observations from a re-analysis of the deposited data

Results flagged for a closer look

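Among 150 sets of 4 libraries examined, 9 held a library whose gap to its nearest neighbour exceeded Dixon's critical value for 4 samples; chance flags about 1 in 20. Low-dose replicate 2 was the high one for the mean log2 CPM of complex II (6.73) and of complex V (6.73), and for the log2 ratio of ATP6V1B2 to ATP6V1B1 (8.14). Middle-dose replicate 3, the middle-dose library with few milk protein reads, was the low one for the log2 ratio of PPA1 to PPA2 (0.709). The other 5 were single members: NDUFS4 in low-dose replicate 1 (19.5 CPM, low), ATP6V1D in low-dose replicate 3 (140 CPM, high), COX8A-like in middle-dose replicate 4 (89.6 CPM, high), COX15-like in high-dose replicate 2 (29.9 CPM, high) and ATP6V1F in high-dose replicate 4 (40.3 CPM, low).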

How the results depend on the processing

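Under library size alone the median of complexes I to V was -0.076, -0.48 and 0.39 for high against low, middle against low and high against middle, and that of the V-type ATPase was -0.25, -0.70 and 0.55, with 0, 10 and 2 members at an unadjusted p under 0.05. The shares of all genes at that threshold were 3.98%, 43.5% and 15% in the same order. Values of single members under this scaling were taken relative to the median of all genes. With a layout term 27 members (26.2%) passed that threshold between the high and low doses, beside 15.8% of all genes and 11.5% without the term, where PPA2 turned to 0.018 and ATP6V1B1 to -0.092. In the 8 libraries of the larger layout, an alternative chosen after seeing the data, 41 did (39.8%), beside 21.9% of all genes, with a median of 0.48 for complexes I to V, ATP6V1B1 at -0.91 and UQCR11-like at 0.16. There ATP6V1F was at 0.031 between the middle and low doses, and between the high and middle doses 2 members passed (12.9% of all genes), with a median of 0.087 for complexes I to V, UQCR11-like at 0.12, COX6A1-like at 0.15 and PPA1 at 0.079. At an adjusted p of 0.05 DESeq2 called 13 and limma 43 members for middle against low, beside 10.6% and 34.5% of all genes. Each called 1 for high against middle, beside 2.12% and 2.45% of all genes. At an unadjusted p under 0.05 limma gave 58 members (56.3%) for middle against low, beside 46.5% of all genes. For high against middle it gave 15 (14.6%), beside 25.7% of all genes. The cause of these differences was not tested.

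Leaving out 1 library at a time gave 1 to 29 members at an unadjusted p under 0.05 for high against low, 17 to 41 for middle against low and 3 to 12 for high against middle, while the share of all genes ran from 6.05% to 20.1%, from 15.6% to 34.7% and from 8.37% to 26.5%. Adjusted calls ran from 0 to 14 for middle against low and from 0 to 1 for high against middle, the highest both times without middle-dose replicate 3. The V-type ATPase median for middle against low ran from 0.020 (without middle-dose replicate 1) to 0.32. PPA2 ran from -0.18 to 0.046 and ATP6V1B1 from -0.40 to 1.22 for high against low, and SDHA from -0.068 to 0.17 for high against middle. In the fits without 1 library, a smaller group is assumed to vary like the others.

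Replicate numbers share only a number: same-numbered libraries deviated together with correlations of -0.535 to 0.379 over 12 pairs, and 1 library was closest to its own number. The replicate block gave 0 adjusted calls, with 41 members (39.8%) at an unadjusted p under 0.05 for middle against low, beside 21.1% of all genes, and medians of 0.25, 0.38 and -0.14 for complexes I to V. No length correction was run, and promoter motifs were not analysed here.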
